A study of Mus musculus with 2 samples.

Results

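The genes described here are 10 immediate early genes, Fos, Fosb, Jun, Junb, Jund, Egr1, Ier2, Ier3, Myc and Klf6, taken by symbol from the deposited table of 24054 mouse liver genes. All 10 were found. They were chosen as AP-1 and other immediate early genes known to respond to tissue handling and stress. The rule uses no measured value, but the choice was made with earlier results of these data known. Total RNA came from livers of untreated male C57BL/6 mice aged 8 to 12 weeks, in 2 genotypes, WT and Pgrmc1 KO (Pgrmc1 -/Y). The floxed allele was made in C57BL/6N stem cells and the Sox2-Cre mice were a separate line, so differences between substrains cannot be told apart from the genotype. The KO mice lack exons 1 and 2 of the X-linked gene Pgrmc1 in the whole body, since the floxed allele was crossed to a Sox2-Cre transgene, and Pgrmc1 encodes a heme-binding membrane protein. RNA of 5 mice per genotype was combined in equal masses of 2.5 μg, and 1 library per genotype was sequenced. Pgrmc1 itself was at 0.68 TPM in the KO library and at 949.49 TPM in the WT library, which fits both labels.

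Immediate early genes are transcribed within minutes of a growth factor, cytokine or stress signal, because the factors that switch them on are already present in the cell. Many of them encode transcription factors, among them the Fos and Jun proteins, which pair through leucine zippers to form AP-1. In liver they are known for their rapid response to partial hepatectomy, injury and ischemia, and their messenger RNAs are short-lived.

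Myc was the 1 immediate early gene that rose in the KO library, from 3.16 (WT) to 5.89 TPM (KO). The other 9 were lower in KO, although none of them by enough to be counted as a fall. Egr1, Fos and Ier2 stood lowest, with log2 changes of -0.54, -0.45 and -0.35, while Jun, Junb and Jund lay within 0.12 of equal levels on the log2 scale. TPM is a relative transcript abundance that allows for transcript length, so levels can be compared between genes. The change is log2((KO TPM + 1)/(WT TPM + 1)), on which the change of a low gene such as Fos comes out too small.

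A gene was counted as up at a fold of at least 1.4 and as down at a fold of at most 0.6 on that scale, provided that both libraries had reads and that their mean reached 1 TPM. Of the 10 members, 8 averaged at least 1 TPM, and Ier3 (mean 0.865) and Fosb (0.195) did not. Among the 8, 1 was up and 0 were down. Over all 11623 genes with that mean, 1.09% were up and 0.301% were down, so that 1 gene of 8 is a count too small to set the members apart. With the mirror of 1.4 (0.714) as the threshold for falls, 1 member was down, Egr1 at 0.688-fold, against 1.02% of all genes. At a threshold of 2-fold 0 members were up, against 0.267% of all genes. The median log2 change of the 8 was -0.145, and that of all genes was -0.013. Of the 8, 1 lay above 0, against 45.8% of all genes with that mean. Pooling of the mice before library preparation left no measure of the spread between mice, so no difference has a replicate check or a p-value. In whole liver, fewer cells of a type and less RNA per cell cannot be told apart.

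**Figure D1:**
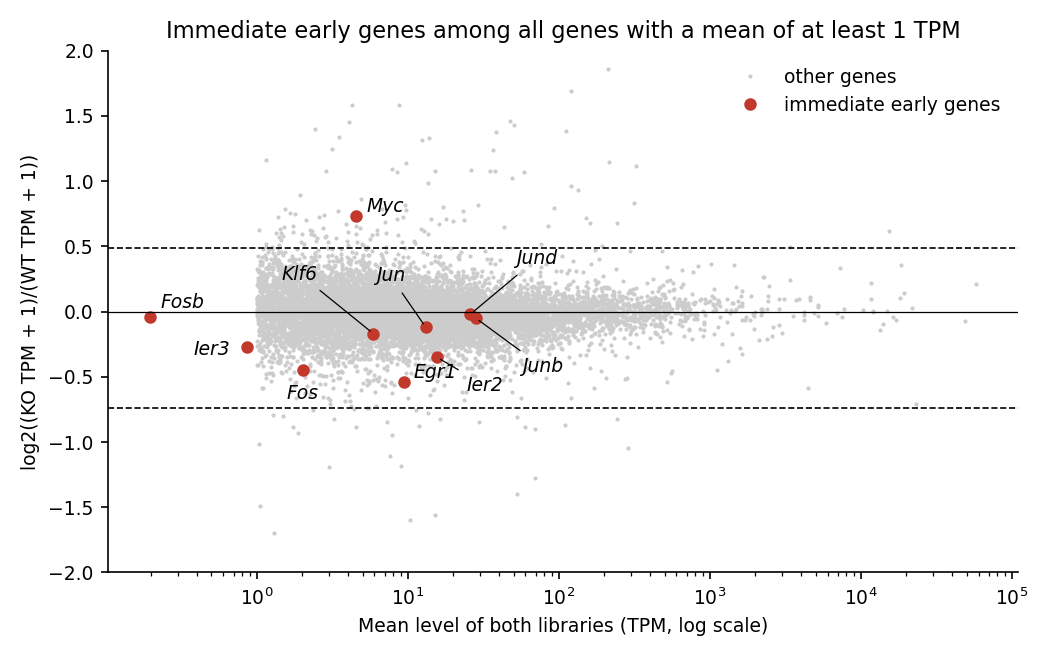
Change between the KO and the WT library (vertical axis, log2((KO TPM + 1)/(WT TPM + 1))) against the mean level of both libraries (horizontal axis, TPM on a log scale), with 1 point per gene. Grey points are genes averaging at least 1 TPM, without the 19 whose change lies beyond 2 on the log2 scale, red points are the 10 immediate early genes, and dashed lines are the folds of 1.4 and 0.6. Myc lies above the upper line and the other members lie below 0 and above the lower line.

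Counting error can be set beside each change. A second deposited table gives the authors' mean of each library, which is the estimated number of reads of a gene divided by a size factor. Its low values fall on multiples of 1.16 in KO and 0.86 in WT, and dividing by these steps gave 22086692 estimated reads in KO and 29710419 in WT over the 16318 genes of that table. The 95% intervals below are for the log2 ratio of these means by the Clopper-Pearson method, and they cover counting error only. By this measure 3 of the 10 members lay wholly below 0 (Fos, Egr1 and Ier2) and 1 wholly above 0 (Myc). All of these were among the 8 members averaging at least 1 TPM, so that 3 of 8 and 1 of 8 are the like counts. Over the genes of both tables averaging at least 1 TPM, 13.4% of intervals lay below 0 and 11.7% above 0. The intervals of the other 6 members held 0, which shows no more than that a change was not detectable at this depth.

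**Figure D2:**
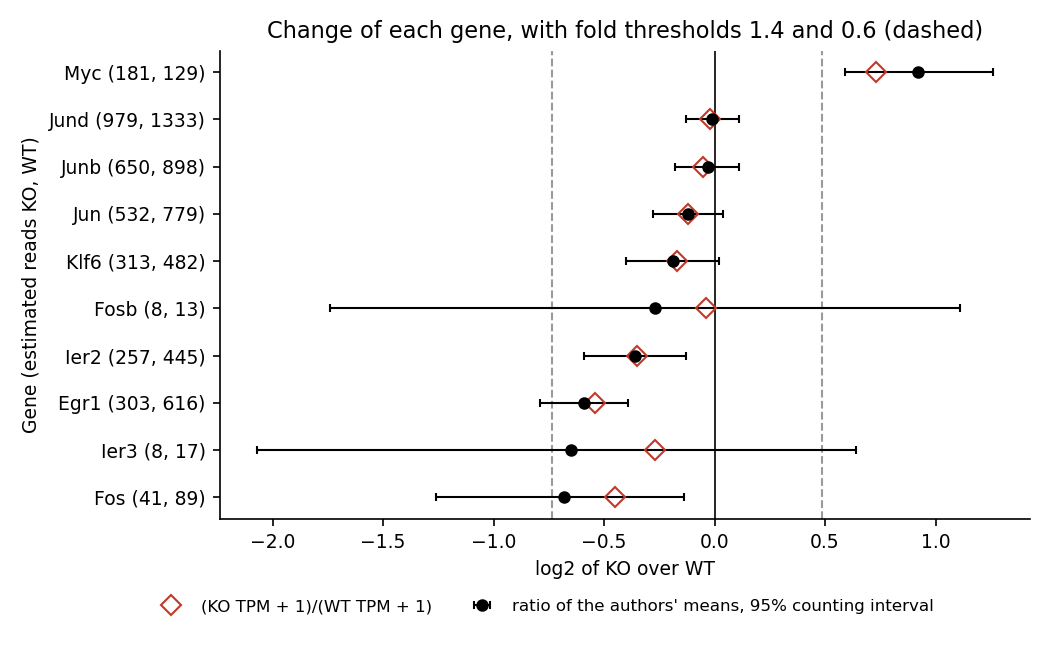
Change of each immediate early gene on the log2 scale (horizontal axis), with the estimated reads in KO and WT in brackets after the gene. Black points are ratios of the authors' means with 95% counting intervals, red diamonds are changes from TPM with 1 TPM added, and dashed lines are the folds of 1.4 and 0.6. The intervals of Fos, Egr1 and Ier2 lie to the left of 0, that of Myc lies to the right, and those of Fosb and Ier3 are the widest, on 8 reads each in KO.

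Fos proteins cannot pair with one another and need a Jun partner. Fos (Entrez gene 14281; chromosome 12, 85473890 to 85477274 of GRCm38) was at 1.55 TPM (KO) and 2.48 TPM (WT), a low level in both libraries. These values rest on 41 estimated reads in KO and 89 in WT. Its ratio of means was 0.622, or -0.68 on the log2 scale (95% interval -1.26 to -0.14), and its log2 change from TPM was -0.45. Of the 11623 genes, 160 had a lower change than Fos. Fosb (chromosome 7, 19302696 to 19310118), a close relative with the same partners, was barely detected, at 0.18 TPM (KO) and 0.21 TPM (WT) on 8 and 13 estimated reads. Its interval of -1.74 to 1.11 allows a change in either direction. Summed over Fos and Fosb, the level was 1.73 TPM (KO) and 2.69 TPM (WT).

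Jun proteins pair with Fos proteins and with each other. Junb and Jund were the most abundant members in both libraries. Junb (chromosome 8, 84976909 to 84978748), a Jun protein of weaker transactivation than Jun, was at 27.66 TPM (KO) and 28.58 TPM (WT) (95% interval of the log2 ratio of means -0.18 to 0.11). Jund (chromosome 8, 70697739 to 70700616), the Jun protein that is made most evenly in resting cells, was at 25.68 TPM (KO) and 26.11 TPM (WT) (-0.13 to 0.11). Jun itself (chromosome 4, 95049036 to 95052222), a main target of the stress kinase JNK, was at 12.53 TPM (KO) and 13.69 TPM (WT) (-0.28 to 0.04). The 3 Jun genes summed to 65.87 TPM (KO) and 68.38 TPM (WT), a ratio of 0.963. On the opposite strand Jun overlaps Junos, Junb overlaps Prdx2 and Jund overlaps Gm11175. The library kit keeps the strand, but the strand value given to RSEM is not given in the sources used here, so reads of these partners may be mixed in. Estimated reads of Jund (978.5 in KO) are not whole, and RSEM gives such values where reads match more than 1 gene.

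The promoters of the AP-1 genes Fos, Fosb, Jun and Junb are printed because Fos and Junb, the members with the lowest ratio of means and with the highest level, can then be seen beside their relatives. Each line holds the 250 bases before the RefSeq start site, 5′ to 3′ on the strand of the gene, at chr12:85473640-85473889 for Fos (plus strand), chr7:19310046-19310295 for Fosb, chr4:95052223-95052472 for Jun and chr8:84978749-84978998 for Junb (minus strand for these 3), from RefSeq on GRCm38.p6. Capitals mark TGACG, the core of the cAMP response element, and TATAAA, the TATA box.
Fos: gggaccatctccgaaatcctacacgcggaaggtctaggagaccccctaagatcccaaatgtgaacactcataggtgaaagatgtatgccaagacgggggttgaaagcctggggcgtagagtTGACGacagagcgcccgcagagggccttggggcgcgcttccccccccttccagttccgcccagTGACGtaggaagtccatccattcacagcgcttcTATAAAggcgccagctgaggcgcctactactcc
Fosb: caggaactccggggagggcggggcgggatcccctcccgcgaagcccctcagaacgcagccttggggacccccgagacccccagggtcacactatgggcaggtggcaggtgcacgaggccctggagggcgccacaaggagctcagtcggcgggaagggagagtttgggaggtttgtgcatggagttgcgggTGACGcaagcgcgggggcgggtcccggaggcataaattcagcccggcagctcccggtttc
Jun: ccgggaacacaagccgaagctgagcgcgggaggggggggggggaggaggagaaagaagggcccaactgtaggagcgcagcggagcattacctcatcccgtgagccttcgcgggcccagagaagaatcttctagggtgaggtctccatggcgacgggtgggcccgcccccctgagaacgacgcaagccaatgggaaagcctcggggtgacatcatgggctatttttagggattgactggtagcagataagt
Junb: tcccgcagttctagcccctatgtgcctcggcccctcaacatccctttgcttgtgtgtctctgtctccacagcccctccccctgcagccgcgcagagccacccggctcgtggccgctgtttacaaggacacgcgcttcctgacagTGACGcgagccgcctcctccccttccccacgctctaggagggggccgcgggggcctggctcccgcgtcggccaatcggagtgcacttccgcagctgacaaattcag
Fos holds TGACG at -129 to -125 and again at -66 to -62, counted from the base before the start as -1, and TATAAA at -33 to -28. Fosb holds 1 TGACG at -60 to -56 and Junb 1 at -106 to -102. Jun holds none of the marked letters in this window. Only exact matches were marked, so variants of these sites stay in lower case. The Fosb window overlaps the gene span given above, which ends at 19310118, so its positions count from a start inside that span.

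Promoters of 7 members were matched by symbol, those of Fos, Fosb, Jun, Junb, Jund, Ier3 and Klf6, among 32851 promoters searched on both strands over the same 250 bases. TGACG was in 3 of the 7 and in 17.8% of all promoters, and TATAAA was in 1 of the 7 and in 12.4%. GGGCGG, the GC box bound by Sp1 and Klf proteins, was in 5 of the 7 and in 32.7%. The full cAMP response element TGACGTCA (0 of the 7, 1.55% of all), the AP-1 site TGACTCA (0 of the 7, 4.46%) and the CArG box of serum response factor (0 of the 7, 1.47%) were not in these windows, and 7 promoters are too few to set against the whole. TGACG is part of TGACGTCA, so these searches overlap. Promoters of Egr1, Ier2 and Myc were not matched, and sites farther upstream than these 250 bases were not searched.

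Egr1 and Klf6 encode zinc finger factors that bind GC-rich DNA. Egr1 (Entrez gene 13653; chromosome 18, 34861207 to 34864956), which is switched on by serum response factor and is widely used as a mark of recent stimulation, was at 7.43 TPM (KO) and 11.26 TPM (WT). Its 303 and 616 estimated reads give a ratio of means of 0.664, or -0.59 on the log2 scale (95% interval -0.79 to -0.39). Egr1 thus had the lowest log2 change from TPM among the members, -0.54, and 86 of the 11623 genes lay lower. Klf6 (chromosome 13, 5861489 to 5870393), a Krüppel-like factor induced in injured liver, was at 5.50 TPM (KO) and 6.32 TPM (WT), on 313 and 482 estimated reads (interval -0.40 to 0.02). The difference of Klf6 was within counting error.

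Ier2 and Ier3 encode small proteins without sequence relation to AP-1. Ier2 (chromosome 8, 84661331 to 84662852), a nuclear protein, was at 13.54 TPM (KO) and 17.54 TPM (WT). Its ratio of means of 0.78 had an interval of -0.59 to -0.13 on the log2 scale, on 257 and 445 estimated reads. Ier3 (chromosome 17, 35821713 to 35822911), which affects cell survival and NF-κB and ERK signaling, was at 0.69 TPM (KO) and 1.04 TPM (WT). With 8 and 17 estimated reads, its interval of -2.07 to 0.64 held 0.

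Myc encodes a growth-promoting transcription factor that binds DNA as a dimer with Max. Myc (Entrez gene 17869; chromosome 15, 61985341 to 61990361) was at 5.89 TPM (KO) and 3.16 TPM (WT), a log2 change of 0.73, or 1.66-fold. The 181 estimated reads in KO and 129 in WT give a ratio of means of 1.89 and an interval of 0.59 to 1.26 on the log2 scale. The lower end of that interval is above 1.4-fold. It is for the ratio of means, while the threshold is on the TPM + 1 scale, and it covers counting error only. Of the 11623 genes, 64 had a higher log2 change from TPM. Across the pseudocount, scaling and table settings tried, the log2 change of Myc ran from 0.73 to 0.92.

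**Figure D3:**
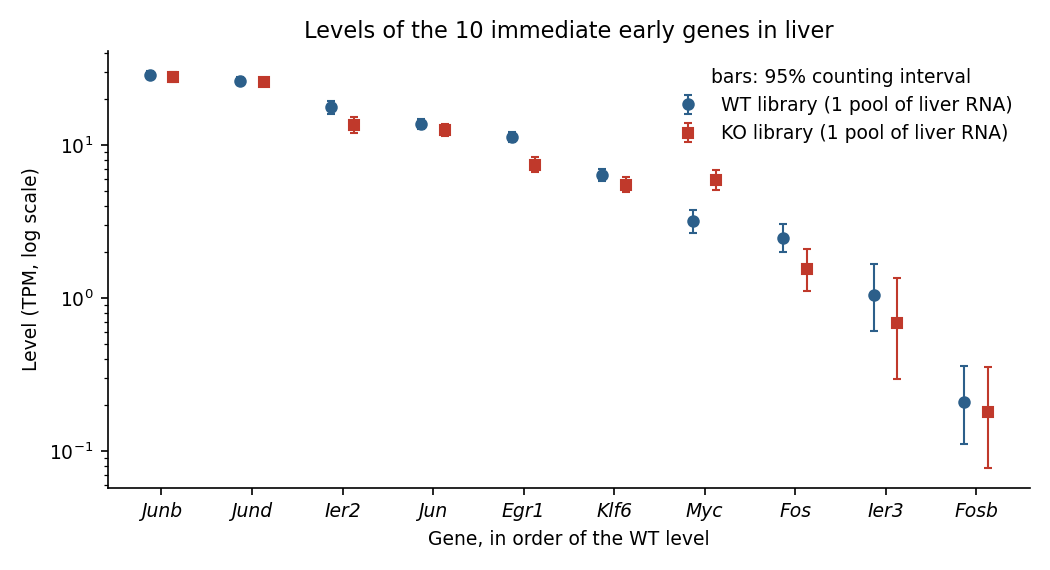
Level of each immediate early gene (vertical axis, TPM on a log scale) in the WT library (blue circles) and the KO library (red squares), with genes in order of the WT level. Each point is 1 pooled library and bars are 95% counting intervals from the estimated reads. The blue and red bars of Egr1, Ier2 and Myc do not overlap, and Myc is the 1 gene with the red point above the blue.

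Within each library the levels spanned from Junb to Fosb, 27.66 to 0.18 TPM in KO and 28.58 to 0.21 TPM in WT. The order of the WT levels was Junb, Jund, Ier2, Jun, Egr1, Klf6, Myc, Fos, Ier3 and Fosb. In KO the order was the same except that Myc stood above Klf6. Neighbours whose counting intervals overlapped in WT were Junb and Jund, and Myc and Fos. In KO they were Junb and Jund, Ier2 and Jun, Egr1 and Myc, Myc and Klf6, Fos and Ier3, and Ier3 and Fosb. Levels of the 10 genes summed to 100.65 TPM (KO) and 110.39 TPM (WT), a ratio of 0.912, and without Myc to 94.76 and 107.23 TPM, a ratio of 0.884.

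In sequence, 4 of the 10 members (Jun, Junb, Jund and Ier2) have 1 exon in the longest coding transcript of GENCODE M21, against 2.23% of 10695 genes averaging at least 1 TPM. The 5-base element ATTTA, found in AU-rich elements that shorten the life of messenger RNAs, was in the 3′ UTR of 9 of the 10 and of 68.8% of those genes. Per kilobase of 3′ UTR the members had a median of 2.75 such elements, from 0 in Ier2 to 8.12 in Ier3, and 8 of the 10 lay above the median of 1.31 of those genes. Myc, the gene that rose, had 4.49 per kilobase. Of the 3 members with intervals below 0, Fos had 4.89, Egr1 1.64 and Ier2 0. The part of this element in the changes was not tested.

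Like the Fos and Jun members, the other listed genes of the AP-1 family passed neither threshold. Of 16 listed genes (further Fos and ATF partners, and Maf and Batf proteins) 10 averaged at least 1 TPM, and 0 were up and 0 down. Their median log2 change was -0.016, with 5 of 10 above 0. Of the 10, 1 had a counting interval above 0 and 1 below 0. Mafg, a small Maf protein, was lowest at -0.31 (25.41 TPM in KO, 31.67 TPM in WT).

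Among other immediate early regulators of transcription 1 gene fell. Of 22 listed genes 14 averaged at least 1 TPM, and 0 were up and 1 was down. This was Klf10, a Krüppel-like factor induced by TGF-β and by the clock, from 21.11 (WT) to 11.50 TPM (KO), a log2 change of -0.82. Klf2, a Krüppel-like factor of endothelium responsive to blood flow, was highest at 0.36 (5.86 TPM in KO, 4.33 TPM in WT). The median of the 14 was 0.062, with 8 above 0, and it turned to -0.306 when a mean of at least 10 TPM was asked for. Of the 14, 4 had counting intervals above 0 and 5 below 0. Over the other 16 KLF genes, 3 of which are also in that list, 11 averaged at least 1 TPM. Of these, 2 lay above 0, Klf10 was the 1 gene down, and the median was -0.233. Of the 11, 1 had a counting interval above 0 and 5 below 0, against 11.7% and 13.4% of all genes. Intervals are narrow for abundant genes, so this is not a like comparison.

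A list mostly of inhibitors that immediate early signals switch on included MAP kinase phosphatases and RNA-binding proteins, but also Mcl1 and Pim1. It held 21 of 25 genes averaging at least 1 TPM. Among them 1 was up, 0 were down and 7 lay above 0, with a median of -0.023. Of the 21, 2 had counting intervals above 0 and 7 below 0. Sik1, a cAMP-induced kinase that restrains the CREB coactivators, rose from 5.66 (WT) to 13.67 TPM (KO), a log2 change of 1.14. Spry4, an inhibitor of receptor tyrosine kinase signaling, was lowest at -0.58 (2.36 and 4.04 TPM in KO and WT). Sik1 and Spry4 are thus the ends of a list whose other members lay closer to 0.

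Kinases and factors upstream of these genes, among them serum response factor, its partners and the MAP kinases, passed neither threshold. Of 26 genes averaging at least 1 TPM 0 were up and 0 down, 13 lay above 0 and the median was -0.003. Counting intervals of 1 of the 26 lay above 0 and of 4 below 0. Log2 changes of the 26 genes ran from -0.33 for Map3k5, a stress-activated kinase also named ASK1, to 0.22 for Egfr, the epidermal growth factor receptor. Srf itself was at 4.32 TPM (KO) and 4.58 TPM (WT) (95% interval of the log2 ratio of means -0.32 to 0.17).

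A list of other early response genes, mostly of secreted and surface proteins but also of intracellular ones such as Sgk1, Odc1, Rhob and Phlda1, held 10 of 19 genes averaging at least 1 TPM. Of these 1 was up, 0 were down and 5 lay above 0, with a median of -0.06. Of the 10, 2 had counting intervals above 0 and 4 below 0. The gene up codes for an intracellular protein and for no secreted or surface product. It was Sgk1, a kinase induced by glucocorticoids and insulin, which rose from 16.91 (WT) to 29.63 TPM (KO), a log2 change of 0.77. Gdf15, a stress-induced hormone, was lowest at -0.47 (8.00 and 11.49 TPM in KO and WT).

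Partners and targets of Myc were set beside its rise. Of 12 network genes averaging at least 1 TPM 0 were up and 0 down, and the median was -0.082 with 3 above 0. Of the 12, 0 had counting intervals above 0 and 3 below 0. Mycn, a Myc paralog, was lowest at -0.39 (1.23 TPM in KO, 1.92 TPM in WT), and Mycbp2 was highest at 0.06. Max was at 12.04 TPM (KO) and 11.98 TPM (WT). A list of 20 genes known as Myc targets included genes of ribosome assembly, nucleotide synthesis and glycolysis. Of these 0 were up and 0 down, and 11 lay above 0, with a median of 0.035. Counting intervals of 5 of the 20 lay above 0 and of 6 below 0. Cad, an enzyme of pyrimidine synthesis, was lowest at -0.39, and Ccnd2, a D-type cyclin, was highest at 0.17.

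**Figure D4:**
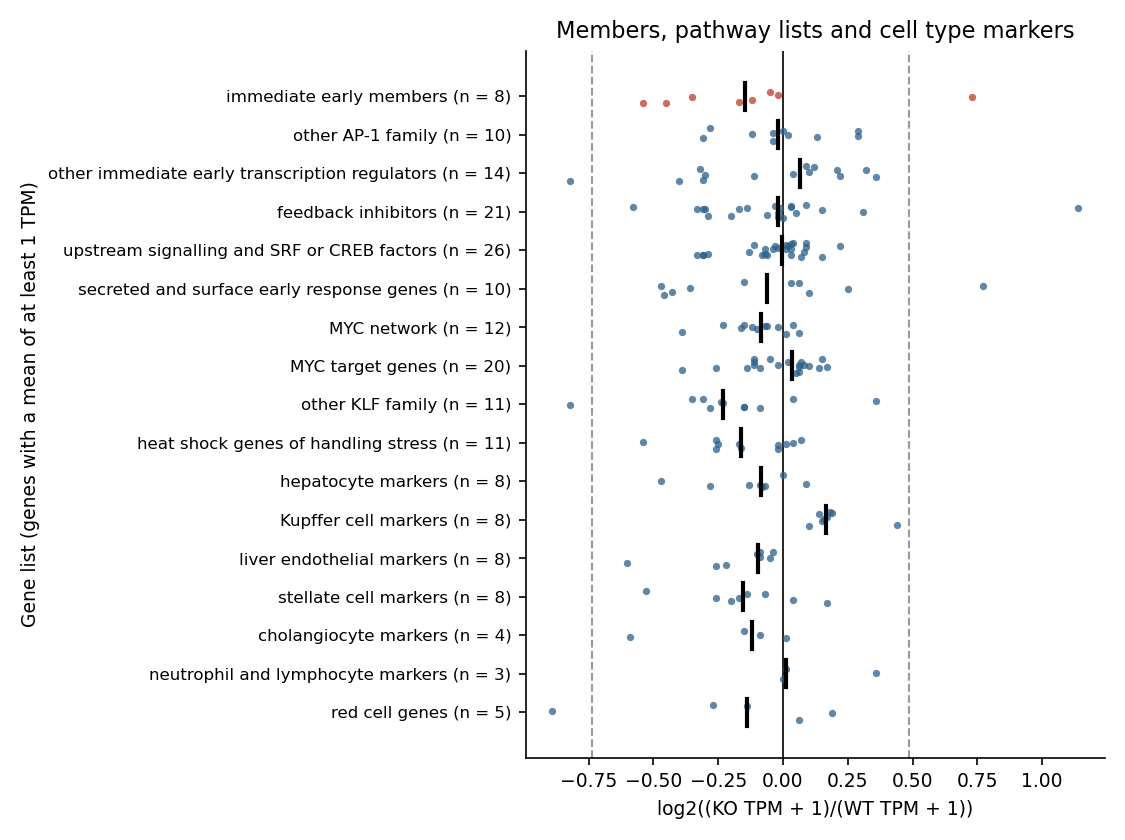
Log2((KO TPM + 1)/(WT TPM + 1)) of the genes in each list (horizontal axis), with 1 point per gene averaging at least 1 TPM and the list and its number of such genes on the vertical axis. Black bars are medians, dashed lines are the folds of 1.4 and 0.6, and the members are in red. The median of the members is -0.145, and Myc is the 1 red point beyond a dashed line.

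Signs of handling stress and the cell types of the sample are given beside these results. Of 11 heat shock genes 0 were up and 0 down, 3 lay above 0 and the median was -0.161, from -0.54 for Hspa1a (1.72 TPM in KO, 2.96 TPM in WT) to 0.07 for Hspb1. Hspa1a has a near-identical neighbour, so its reads may be split. Counting intervals of 6 of the 11 lay below 0 and 0 above, against 13.4% of all genes below. Intervals are narrow for abundant genes such as Hspa8 (-0.18 to -0.14), so the share over all genes is not a like comparison. Of the 8 hepatocyte markers, 6 also had intervals below 0, and 2 had intervals above 0. The part of the heat shock genes in the lower levels of Egr1, Fos and Ier2 was not tested. Hepatocyte markers show the labelled tissue, with Alb highest at 47241.79 TPM (KO) and 49729.07 TPM (WT). Their 8 genes had a median of -0.083, from -0.47 for Ass1 to 0.09 for Serpina1a, and a summed level of 72830.1 TPM (KO) and 76154.7 TPM (WT).

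Kupffer cell markers were higher in KO for 8 of 8 genes, with a median of 0.166, from 0.10 for Vsig4 to 0.44 for Folr2, and summed to 237.52 TPM (KO) and 208.49 TPM (WT). Over all genes averaging at least 1 TPM, 45.8% lay above 0. Counting intervals of 5 of the 8 Kupffer cell markers lay above 0 and 0 below. Clec4f, which defines these macrophages, was at 69.41 and 60.77 TPM. Endothelial markers were lower for 8 of 8, with a median of -0.096, from -0.60 for Lyve1 to -0.04 for Stab2, and summed to 166.18 TPM (KO) and 184.18 TPM (WT). Counting intervals of 3 of these 8 lay below 0 and 0 above. The endothelial marker with the highest level, Clec4g, was at 48.67 and 52.15 TPM. Stellate cell markers had 2 of 8 genes above 0 and a median of -0.154, from -0.53 for Rgs5 to 0.17 for Lrat, with Dcn most abundant at 119.52 and 137.03 TPM, and summed to 216.0 TPM (KO) and 244.15 TPM (WT). Cholangiocyte markers had 1 of 4 above 0 and a median of -0.12, from -0.59 for Epcam to 0.01 for Krt19, with Spp1 most abundant at 57.81 and 61.41 TPM, and summed to 62.04 and 66.96 TPM. In these marker lists 0 genes were up and 0 down. Neutrophil and lymphocyte markers were at or below 5.07 TPM, 3 of 7 averaged at least 1 TPM, none was called and their median was 0.009, and they summed to 12.35 TPM (KO) and 12.22 TPM (WT), with Ptprc most abundant at 5.06 and 5.07 TPM and S100a9 highest in change at 0.36. Red cell genes summed to 1412.68 TPM (KO) and 1429.18 TPM (WT), and the 5 that averaged at least 1 TPM had a median of -0.144, which is 0.044 with the authors' means. Hbb-bs, a β-globin whose near-identical copies may share its reads, was the 1 gene down, at 41.29 TPM (KO) and 77.14 TPM (WT), while Hba-a1, an α-globin, was most abundant and highest in change at 0.19. The part of these cell types in the changes of the immediate early genes was not tested.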

How the data were processed

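Liver RNA was pooled by genotype and sequenced as 1 library each for KO and WT with a stranded total RNA kit and paired reads of 100 bases. The authors estimated gene levels with RSEM 1.2.09 (mm10) and deposited them as scaled posterior mean TPM. These sum to 1005325 (KO) and 994702 (WT). They also deposited, from EBSeq, a mean signal per library, which is the estimated read count divided by a size factor. This table was mapped to the genotypes by its comparison, KO against WT. Its columns of posterior probabilities and fold changes are the authors' own comparison and were not used.

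Changes were computed from TPM with 1 TPM added, and calls use folds of 1.4 and 0.6. The study set a percent limit on the fold change, together with a posterior probability that was not used here. The fold of 0.6 is 1 reading of that limit for falls, and 0.714 was the alternative. Counting intervals use reads estimated from the steps of the authors' signal, rounded to whole numbers. Estimated reads of 5 of the 10 members were whole within 0.02 in both libraries. Members and lists were chosen with earlier results of these data known. Named genes are the members, Pgrmc1, and in each of the 16 other lists the genes called and the highest and lowest gene, with the most abundant gene of marker lists, and 1 gene that this rule names is not reported here. Srf, Max and the genes under other observations were added after their values were seen. Older symbols were matched through RefSeq synonyms, and 1 listed marker (Ly6g) was not matched. Coordinates and promoters are from RefSeq and transcripts from GENCODE M21, both on GRCm38, the assembly of mm10. Alternatives were another pseudocount, the authors' means, centring, other fold limits, other filters and a rescaling that leaves out the top 50 genes by level. Tools were scipy 1.17.1, pandas 2.3.3, numpy 2.4.6 and matplotlib 3.10.9 under Python 3.11.15.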

Additional observations from a re-analysis of the deposited data

How the results depend on the processing

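No paired analysis was possible because KO and WT are 1 pooled library each, and for the same reason no replicate could be left out. Of 40 alternative values of the members' log2 changes (pseudocount of 0.1 TPM, authors' means, centring, and rescaling without the 50 most abundant genes), 40 moved by less than the counting interval allows and 0 changed sign. Another pseudocount cannot change a sign, the rescaling factors had a KO over WT ratio of 1.0, and the median used for centring was -0.013. Only the authors' means could readily have changed a sign. Fos ran from -0.67 to -0.44, Egr1 from -0.59 to -0.53, Ier2 from -0.37 to -0.34 and Ier3 from -0.60 to -0.26. The count of members up went from 1 to 0 with a threshold of 2-fold and to 0 with a minimum mean of 10 TPM, which leaves Myc out, and the count of members down went from 0 to 1 with the mirror threshold of 0.714. The median of the members stayed between -0.162 and -0.082. Among medians of the other lists, that of other immediate early regulators went to -0.306 with a minimum of 10 TPM, where fewer genes are counted, and with the authors' means that of hepatocyte markers went to -0.068 and that of red cell genes to 0.044. The cause of the moves with the authors' means was not tested. The median of upstream factors changed sign within counting error. Depth limits Fosb and Ier3, on 8 estimated reads each in KO, and Fos, on 41. For Egr1, Ier2 and Myc the limit is the pooling of the mice.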

Other observations

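The following genes were chosen after their values were seen. Atf3, a stress-induced partner of Jun proteins, had a mean just under 1 TPM and so was not counted, at 0.59 TPM (KO) and 1.38 TPM (WT). Its 14 and 46 estimated reads give a log2 ratio of means of -1.28 (95% interval -2.26 to -0.39), lower than that of any of the 10 members. Thbs1, a matrix protein of the early response, was at 0.91 TPM (KO) and 1.57 TPM (WT) (interval -1.19 to -0.36, on 72 and 166 estimated reads). The nuclear receptor Nr4a1, a further immediate early gene, was at 1.26 TPM (KO) and 0.96 TPM (WT), and its interval of -0.27 to 1.06 held 0.

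Among feedback inhibitors, Dusp1, a phosphatase that switches off JNK and p38, was at 18.90 TPM (KO) and 24.04 TPM (WT) (95% interval of the log2 ratio of means -0.50 to -0.17), and Btg2, an antiproliferative gene, was at 13.34 and 16.62 TPM (-0.46 to -0.15). Zfp36, whose protein binds AU-rich elements, was at 56.10 and 56.58 TPM (-0.10 to 0.11). Nab2, which represses Egr proteins and is itself an Egr1 target, was at 11.71 TPM (KO) and 11.72 TPM (WT) (-0.18 to 0.21), beside the lower level of Egr1. None of these differences has a replicate check.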
